A study of Mus musculus with 10 samples.

Results

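The 36 genes described here encode the contractile machinery of striated muscle and its calcium and energy supply, and were taken by symbol from the mRNA table of an experiment on whole mouse eyeballs. All 36 symbols were among the 24736 in the table, and all 36 passed the low-count filter. The eyes came from female Kunming mice, an outbred stock, aged 4 weeks, with day 14 in the sample titles. The blue group (3 libraries, A, B and C) had been kept in a dark container under an 18 W blue lamp, and the control group (2 libraries, A and B) had been kept in natural light. The same letters name 5 miRNA libraries. The labels do not say that each library is a separate animal, so the p-values speak only of the spread among these 5 libraries, and that spread may be technical.

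Striated muscle shortens when myosin heavy chains of the thick filament pull on actin of the thin filament, and troponin switches this interaction on when calcium is released inside the fibre. Fast and slow fibres carry different genes for many of these proteins. The extraocular muscles, which move the eyeball and insert on its outer coat, are known for keeping several heavy chain forms side by side, among them the embryonic and perinatal forms that most adult muscle loses and a form of their own encoded by Myh13.

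Among the libraries, blue A and control B stood apart. They were the 2 highest libraries for 35 of the 36 genes, a pattern that 12.7% of the 18290 tested genes above 0 everywhere showed. The exception was Tnnt1, which was highest in blue A and blue C. Of the 36 genes, 16 peaked in blue A and 20 in control B. Summed over the 36 genes, the level was 6082, 2717 and 2668 CPM (counts scaled by library total with edgeR's TMM factors) in blue A, B and C, against 2730 and 5856 CPM in control A and B. Blue A and control B were thus near each other, as were the other 3 libraries. Library totals (93202801 to 102602360 in blue, 87071487 and 107660103 in control) did not follow this order, nor did the share of Rn45s, the ribosomal RNA precursor, at 10.8%, 8.69% and 14.4% in blue and 4.3% and 14.1% in control. The eye was present in all libraries, with lens crystallins at 5.34%, 5.62% and 5.51% of the total in blue A, B and C, against 5.47% and 4.85% in control A and B. The crystallin share was thus lowest in control B and blue A, and its part in the muscle pattern was not tested.

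The promoters of 3 heavy chain genes are shown because these genes lie in 1 cluster on chromosome 11 and yet spanned very different ranges across the libraries. Along GRCm38.p6 the cluster holds Myh3 (chr11:67078273-67102291), Myh2 (chr11:67171027-67197517), Myh1 (chr11:67200102-67224577), Myh4 (chr11:67237812-67260447), Myh8 (chr11:67277124-67308634) and Myh13 (chr11:67327103-67371587). Each printed window runs 5′ to 3′ on the plus strand and is 300 bases long, taken from 250 bases before to 50 bases after the start used in the RefSeq promoter table (chr11:67078050-67078349, chr11:67237562-67237861 and chr11:67326853-67327152). For Myh3 that start lies inside the gene span given above. Capitals mark matches, on either strand, to the E-box CAGCTG, the MEF2 box, the CArG box or TATAAA.
Myh3: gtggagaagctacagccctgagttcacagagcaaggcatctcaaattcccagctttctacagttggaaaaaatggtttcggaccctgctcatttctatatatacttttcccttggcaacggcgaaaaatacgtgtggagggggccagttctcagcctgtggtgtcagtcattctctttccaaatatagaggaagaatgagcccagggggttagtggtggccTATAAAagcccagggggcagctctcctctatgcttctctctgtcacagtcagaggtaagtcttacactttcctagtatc
Myh4: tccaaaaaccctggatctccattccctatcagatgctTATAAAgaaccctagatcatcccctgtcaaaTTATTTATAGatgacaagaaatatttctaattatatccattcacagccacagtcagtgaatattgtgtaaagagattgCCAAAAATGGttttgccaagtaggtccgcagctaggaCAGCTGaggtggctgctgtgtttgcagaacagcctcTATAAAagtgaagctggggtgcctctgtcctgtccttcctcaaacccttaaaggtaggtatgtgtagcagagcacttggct
Myh13: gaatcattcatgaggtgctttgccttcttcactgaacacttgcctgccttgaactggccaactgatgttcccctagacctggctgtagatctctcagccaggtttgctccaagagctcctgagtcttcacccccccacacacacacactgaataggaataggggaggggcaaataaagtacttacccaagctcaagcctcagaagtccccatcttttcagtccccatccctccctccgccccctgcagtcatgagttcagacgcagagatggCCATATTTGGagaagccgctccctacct
The Myh4 window held 1 E-box, 1 MEF2 box, 1 CArG box and 3 copies of TATAAA, of which 1 lies within the MEF2 box on the other strand. The Myh3 window held 1 TATAAA, and the Myh13 window held 1 CArG box, after the start. Promoter entries were used for 29 of the 36 genes. An E-box was in 12 of them (41.4%), against 16.1% of all 27025 promoters in the table, and TATAAA was in 8 (27.6%), against 14.2%. The MEF2 box was in 5 (17.2%), against 3.26% of all promoters, and the CArG box was in 5 (17.2%), against 1.57%. A match of letters is a description of the window and not a bound site.

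Blue light was set against natural light to ask whether the exposed eyes differed in their muscle transcripts. None of the 36 genes passed edgeR's quasi-likelihood test after Benjamini-Hochberg adjustment, in a comparison that called 421 of 18988 tested genes (2.22%; 0.664% higher and 1.55% lower in blue). By library, the 36 genes together made up 0.619%, 0.284% and 0.261% of the total in blue A, B and C (mean 0.388% ± 0.200, SD, n = 3) and 0.282% and 0.544% in control A and B (mean 0.413% ± 0.185, SD, n = 2). The difference of -0.0252 percentage points was smaller than the spread within either group (exact permutation p = 0.9, two-sided; 3 against 2 libraries allow no p below 0.1). Titin, the giant spring protein of the sarcomere, gave 52.2% to 57.2% of these counts, which are not divided by transcript length. Without Ttn the shares were 0.294%, 0.131% and 0.125% in blue, against 0.121% and 0.260% in control (exact permutation p = 1.0). In whole-organ RNA, fewer muscle fibres and less RNA per fibre cannot be told apart.

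**Figure D1:**
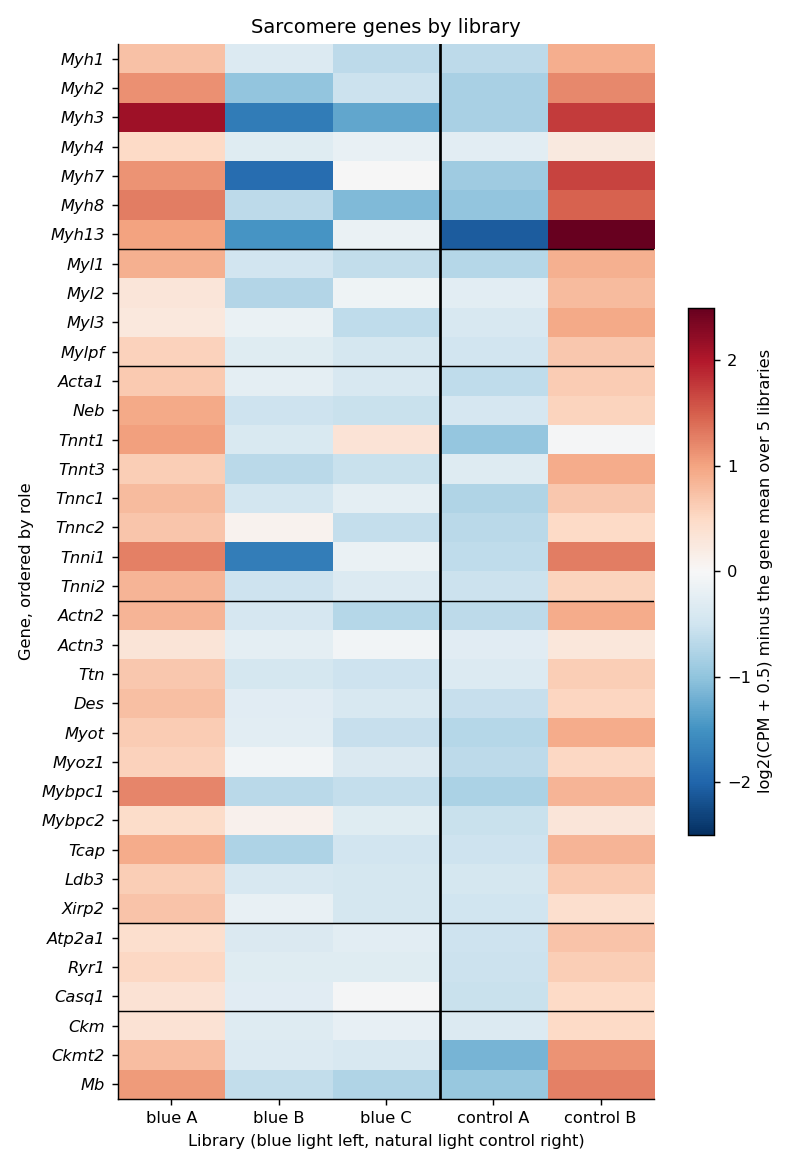
Level of the 36 sarcomere genes in each mRNA library as log2(CPM + 0.5) minus the gene's mean over 5 libraries (colour, log2 units), with blue libraries left of the line and controls right of it and horizontal lines between roles. Blue A and control B are the high columns for all genes but Tnnt1, and the other 3 columns are low.

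The test by gene gave the same picture. No gene was below an unadjusted p of 0.05 in edgeR (16.3% of all genes were), and the adjusted p of the 36 genes ran from 0.434 to 0.996. DESeq2 called none, with 1 gene below an unadjusted p of 0.05 (DESeq2 called 9.03% of all genes), and limma-voom called none. The blue and control values overlapped for all 36 genes, whereas the groups did not overlap for 35.6% of the genes tested (15.6% with blue higher and 20.1% with blue lower). The log2 fold change, blue minus control, was negative for 26 of the genes and positive for 10, with a median of -0.20 against -0.01 over all genes. It ran from -1.91 (Myh13) to 0.91 (Tnnt1). For all 35 genes above 0 in both controls it was smaller in size than the log2 ratio between the 2 controls. Myh13, at 0 in control A, has no such ratio.

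The direction of these fold changes turned with the libraries included. Without control B the median of the 36 genes was 0.71 and all 36 were positive. Without control A it was -0.64, with 35 negative, and without blue A it was -0.67, again with 35 negative. Control B exceeded control A for all 35 genes above 0 in both, by a median of 2.39-fold (1.42-fold to 11.01-fold). Blue A exceeded blue B for all 36, by a median of 2.25-fold (1.29-fold to 82.9-fold), and exceeded blue C for all 35 above 0 in both, by a median of 2.30-fold (1.32-fold to 10.8-fold). Over all genes each of these 3 medians lay between 0.998 and 1. The count of 421 called genes also depended on single libraries, at 8 without control A, 11 without blue C and 0 without control B (1387 higher and 1485 lower at an unadjusted p under 0.05 without control B).

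**Figure D2:**
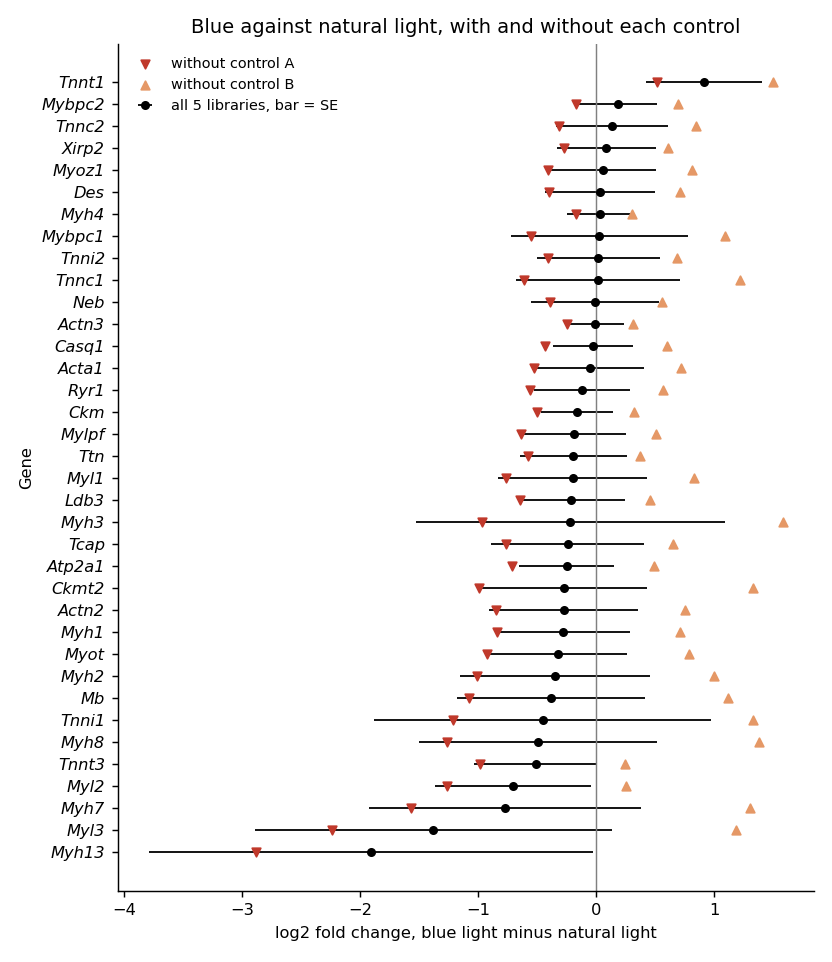
Log2 fold change of each sarcomere gene, blue minus natural light, from edgeR (black points, bars show SE), with the same fit without control A (red, pointing down) and without control B (orange, pointing up; left out for Myh13, which is at 0 in control A). All 36 black points lie between -1.91 and 0.91, and the values without control B lie to the right of 0 while those without control A lie to its left for all genes but Tnnt1.

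Myosin heavy chains, the motors of the thick filament, had the widest median range of the roles, 5.84-fold over the libraries without Myh13, which was at 0 in control A. The level of the 7 genes (mean over genes of the centred log2 CPM) was 1.13, -1.06 and -0.57 in blue A, B and C, against -0.93 and 1.43 in control A and B. Myh4, the fastest (type IIb) heavy chain, had 387, 223 and 243 CPM in blue A, B and C, against 230 and 327 CPM in control A and B. Its highest library was 1.74 times its lowest, and its log2 fold change was 0.03 ± 0.28 (SE; edgeR adjusted p = 0.973). Myh1, the type IIx chain, had 161, 76.3 and 61.0 CPM in blue, against 60.9 and 181 CPM in control. Myh2, the type IIa chain, had 166, 37.6 and 52.0 CPM in blue, against 42.6 and 175 CPM in control. Both were high in blue A and control B alone, by up to 2.98-fold and 4.65-fold over their lowest library.

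The embryonic heavy chain Myh3 differed far more between libraries of the same light than between lights. It had 263, 17.7 and 24.4 CPM in blue A, B and C, against 34.2 and 203 CPM in control A and B, a 14.9-fold range. Its log2 fold change was -0.22 ± 1.31 (SE; edgeR adjusted p = 0.961). The perinatal chain Myh8 had 14.7, 3.46 and 2.37 CPM in blue, against 2.63 and 16.7 CPM in control, a 7.02-fold range. Myh13, the extraocular chain, had 3.75, 0.261 and 1.37 CPM in blue, against 0 and 13.5 CPM in control. It was listed at 0 in control A and was highest in control B, which made its fitted log2 fold change (-1.91 ± 1.88, SE; edgeR adjusted p = 0.687) the least certain of the group. Myh7, the slow chain shared with the heart (chr14:54970684-54994626), had 8.27, 0.578 and 3.48 CPM in blue, against 1.66 and 12.4 CPM in control. That is a 21.5-fold range around a log2 fold change of -0.77 ± 1.15 (SE; edgeR adjusted p = 0.804). The chains on chromosome 11 are close copies of each other, and reads that fit several of them could have been split between them by the authors' counting.

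The makeup of the heavy chains was therefore not the same in every library. Shares are of the summed estimated counts of the 7 genes and are not divided by length, so they are compared between libraries and not between genes. Myh4 made up 38.5%, 62.1% and 62.7% in blue A, B and C (mean 54.4% ± 13.8, SD, n = 3), against 61.8% and 35.2% in control A and B (mean 48.5% ± 18.8, SD, n = 2). The embryonic chain Myh3 made up 26.2%, 4.92% and 6.29% in blue (mean 12.5% ± 11.9, SD), against 9.18% and 21.9% in control (mean 15.5% ± 8.96, SD). Blue A and control B, the libraries with more muscle RNA, thus had a lower Myh4 share and a higher Myh3 share than the other 3. Myh1 made up 16.0%, 21.3% and 15.7% in blue, against 16.4% and 19.5% in control. Myh2 made up 16.6%, 10.5% and 13.4% in blue, against 11.5% and 18.9% in control. The Myh1 share alone among these 4 did not separate blue A and control B from the rest. The remaining shares were below 2% in all 5 libraries, at 0.161% to 0.899% in blue and 0.447% and 1.33% in control for Myh7, 0.612% to 1.46% in blue and 0.708% and 1.79% in control for Myh8, and 0.0727% to 0.374% in blue and 0% and 1.45% in control for Myh13. No share differed between blue and control beyond the spread within groups (exact permutation p from 0.5 to 0.8, adjusted p = 0.8 for each of the 7 shares). The blue minus control difference in the Myh4 share was 5.93 points with all libraries, 19.3 without control A, 13.9 without blue A and -7.4 without control B. That in the Myh3 share was -3.04 points with all libraries, -9.91 without blue A, -9.37 without control A and 3.3 without control B.

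**Figure D3:**
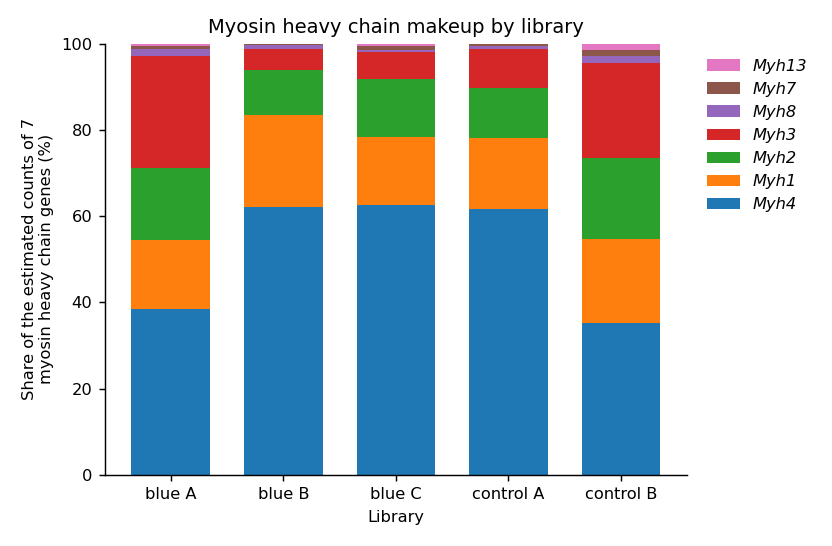
Makeup of the myosin heavy chains in each mRNA library, as the percentage of the summed estimated counts of 7 genes, not divided by length (1 stacked bar a library, blue left of control). The Myh3 segment is 26.2% in blue A and 21.9% in control B and below 10% in the other 3 bars.

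Set against Myh4 within the same library, the other chains and partners kept their own ranges. The ratio of Myh3 to Myh4 CPM was 0.681, 0.0792 and 0.1 in blue A, B and C, against 0.148 and 0.621 in control A and B, an 8.59-fold range. The ratio of Ckm, the muscle creatine kinase, to Myh4 was 0.193, 0.206 and 0.206 in blue, against 0.198 and 0.251 in control, a 1.30-fold range. The ratio of Mb, the oxygen store myoglobin, to Myh4 was 0.229, 0.123 and 0.103 in blue, against 0.0942 and 0.310 in control, a 3.30-fold range. The ratio of Ckm was thus nearly level over the libraries, while those of Myh3 and Mb were higher in blue A and control B than in the other 3.

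Light chains sit on the neck of the myosin head and tune its stroke. Myl1, the fast essential chain, had 75.3, 28.9 and 26.2 CPM in blue, against 24.5 and 75.4 CPM in control. Mylpf, the fast regulatory chain, had 61.0, 33.0 and 29.8 CPM in blue, against 29.0 and 65.2 CPM in control. Both were again high in blue A and control B and nearly equal there. The slow and ventricular forms had few counts. Myl2 had 1.24, 0.354 and 0.813 CPM in blue, against 0.674 and 1.95 CPM in control, and Myl3 had 0.426, 0.186 and 0 CPM in blue, against 0.0898 and 0.989 CPM in control. Myl3 was listed at 0 in blue C and rests on at most 80 estimated counts a library. Myl2 rests on 38 to 158 estimated counts a library. Its span overlaps Ccdc63, which had 117, 139 and 79 estimated counts in blue, against 436 and 241 in control.

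On the thin filament, skeletal actin and nebulin followed the heavy chains. Acta1, skeletal alpha-actin (chr8:123891758-123894775), had 140, 75.7 and 67.1 CPM in blue, against 57.4 and 138 CPM in control, with a log2 fold change of -0.05 ± 0.46 (SE; edgeR adjusted p = 0.972). Neb, which spans the thin filament, had 361, 130 and 128 CPM in blue, against 140 and 275 CPM in control. In both genes blue A and control B were the high libraries and the other 3 lay close together.

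Troponin has a calcium-binding subunit (C), an inhibitory subunit (I) and a subunit that anchors it to tropomyosin (T). The fast forms moved with the rest of the muscle genes. Tnnt3 had 52.6, 21.0 and 23.1 CPM in blue, against 27.2 and 64.9 CPM in control, Tnni2 had 36.03, 13.8 and 15.5 CPM in blue, against 13.5 and 29.5 CPM in control, and Tnnc2 had 29.6, 19.2 and 11.9 CPM in blue, against 11.3 and 25.7 CPM in control. Of the slow forms, Tnnc1 had 3.45, 1.16 and 1.44 CPM in blue, against 0.862 and 3.13 CPM in control. Slow Tnni1 had 3.86, 0.0466 and 1.12 CPM in blue, against 0.665 and 3.94 CPM in control, which is 390, 5 and 102 estimated counts in blue against 74 and 319 in control. The 84.7-fold range of Tnni1 was the widest among the 34 genes above 0 in all libraries (Myh13 and Myl3 were each at 0 in 1 library) and rests on the 5 counts of blue B, and its log2 fold change was -0.45 ± 1.43 (SE; edgeR adjusted p = 0.921).

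Slow troponin T was the exception to the library order. Tnnt1 (chr7:4504569-4515975) had 21.9, 7.96 and 13.4 CPM in blue A, B and C, against 5.09 and 10.3 CPM in control A and B. Blue B lay below control B, so the groups overlapped, and the log2 fold change of 0.91 ± 0.49 (SE) did not pass (edgeR unadjusted p = 0.114, adjusted p = 0.434). Leaving out any library gave 0.5 to 1.5 on the log2 scale. Of the summed Tnnt1 and Tnnt3 counts, Tnnt1 made up 29.4%, 27.5% and 36.7% in blue (mean 31.2% ± 4.88, SD, n = 3), against 15.8% and 13.6% in control (mean 14.7% ± 1.53, SD, n = 2). Of 8 pairs looked at (slow with fast forms, and Actn2 with Actn3), this was the only one whose blue and control shares did not overlap. Among single genes the groups did not overlap for 35.6% of all tested. The pairs were chosen after the values had been seen, so the Tnnt1 share is a description with no test. The slow share of troponin C was 10.4%, 5.67% and 10.8% in blue, against 7.12% and 10.9% in control, and that of troponin I was 9.68%, 0.337% and 6.75% in blue, against 4.68% and 11.8% in control. These 2 shares overlapped between lights and were lowest in blue B. The Tnnt3 span overlaps Prr33, which had 1445, 675 and 727 estimated counts in blue, against 1008 and 957 in control, and reads there cannot be told apart without strand.

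Z-disc proteins, titin and the myosin-binding proteins hold the filaments in register. Ttn had 3192, 1462 and 1392 CPM in blue, against 1562 and 3056 CPM in control, with a log2 fold change of -0.20 ± 0.45 (SE; edgeR adjusted p = 0.885). Des, the desmin filament around the Z-disc, had 63.8, 30.9 and 28.6 CPM in blue, against 25.1 and 55.3 CPM in control. Mybpc1, the slow form of myosin-binding protein C, had 95.1, 24.9 and 26.4 CPM in blue, against 23.0 and 72.9 CPM in control. Its fast form Mybpc2 had 24.7, 19.2 and 14.3 CPM in blue, against 12.0 and 22.2 CPM in control. The slow form thus spanned 4.14-fold over the libraries and the fast form 2.07-fold.

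The 2 alpha-actinins of the Z-disc differed in the same way. Actn2, found in all fibres and in the heart, had 35.0, 14.3 and 11.5 CPM in blue, against 12.0 and 37.1 CPM in control. Actn3, which is restricted to fast fibres, had 14.5, 9.56 and 10.9 CPM in blue, against 9.37 and 14.1 CPM in control. Its 1.54-fold range was the narrowest of the 36 genes, and its log2 fold change was -0.01 ± 0.25 (SE; edgeR adjusted p = 0.992). Actn2 made up 70.8%, 59.9% and 51.4% of the pair in blue, against 56.2% and 72.5% in control.

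The other Z-disc genes repeated the order of the libraries. Xirp2, an actin-binding repeat protein, had 78.3, 41.9 and 35.0 CPM in blue, against 33.9 and 63.8 CPM in control. Ldb3, a PDZ and LIM protein of the Z-disc, had 25.2, 12.2 and 12.0 CPM in blue, against 12.0 and 26.2 CPM in control. Tcap, the titin cap, had 20.8, 6.07 and 7.58 CPM in blue, against 7.31 and 19.9 CPM in control. All 3 were high in blue A and control B. Myot, a partner of alpha-actinin and filamin, had 13.9, 7.27 and 5.75 CPM in blue, against 5.19 and 17.3 CPM in control. Myoz1, a calcineurin-binding protein of fast fibres, had 12.6, 7.87 and 6.35 CPM in blue, against 5.09 and 12.1 CPM in control. Of these 5 genes Tcap had the widest range and Ldb3 the narrowest.

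Calcium handling genes had the smallest median range of the roles, 2.22-fold over the libraries. Atp2a1, the fast calcium pump of the sarcoplasmic reticulum, had 358, 208 and 221 CPM in blue, against 187 and 437 CPM in control, with a log2 fold change of -0.25 ± 0.40 (SE; edgeR adjusted p = 0.821). Ryr1, the release channel, had 99.2, 55.4 and 56 CPM in blue, against 47.5 and 105 CPM in control. Casq1, the fast calcium store protein, had 57.5, 36.7 and 43.4 CPM in blue, against 30.3 and 63.2 CPM in control. The values of all 3 overlapped between the lights.

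Energy genes divided into a narrow and a wide pattern. Ckm had 74.7, 46.0 and 50.01 CPM in blue, against 45.6 and 82.0 CPM in control, a 1.80-fold range, with a log2 fold change of -0.16 ± 0.31 (SE; edgeR adjusted p = 0.854). Its mitochondrial relative Ckmt2 had 37.0, 16.8 and 16.1 CPM in blue, against 9.25 and 47.1 CPM in control, a 5.09-fold range. Mb (chr15:77015487-77050668) had 88.6, 27.5 and 25.0 CPM in blue, against 21.7 and 101 CPM in control, a 4.68-fold range, with a log2 fold change of -0.39 ± 0.80 (SE; edgeR adjusted p = 0.867). Mitochondrial creatine kinase and myoglobin, which belong to oxidative fibres, thus ranged more widely than Ckm. Apol6, which overlaps the Mb span, had 254, 94 and 112 estimated counts in blue, against 106 and 175 in control.

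Grouped by fibre type, the genes differed in how far they ranged. For the 13 fast genes the highest library was 1.54 to 4.65 times the lowest, with a median of 2.48. For the 6 slow genes it was 3.99 to 84.7 times, with a median of 5.52 (Myl3, at 0 in blue C, has no ratio). The 6 do not include Mybpc1, which ranged 4.14-fold and was put in no fibre type, although its fast partner Mybpc2 is among the 13. For the 3 developmental or extraocular heavy chains the median was 10.97, over Myh3 and Myh8 alone, since Myh13 was at 0 in control A. The median over the 34 members above 0 in all libraries was 2.90, against 1.41 over all tested genes, and 10 of these 34 ranged at least 4-fold, as did 7.06% of all genes. Low counts vary more between libraries, and several of the slow genes had few (5 in blue B for Tnni1, 0 in blue C for Myl3); the part of low counts in the wider range was not tested. Myh3, with 17.7 CPM in its lowest library, was not among the low genes.

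**Figure D4:**
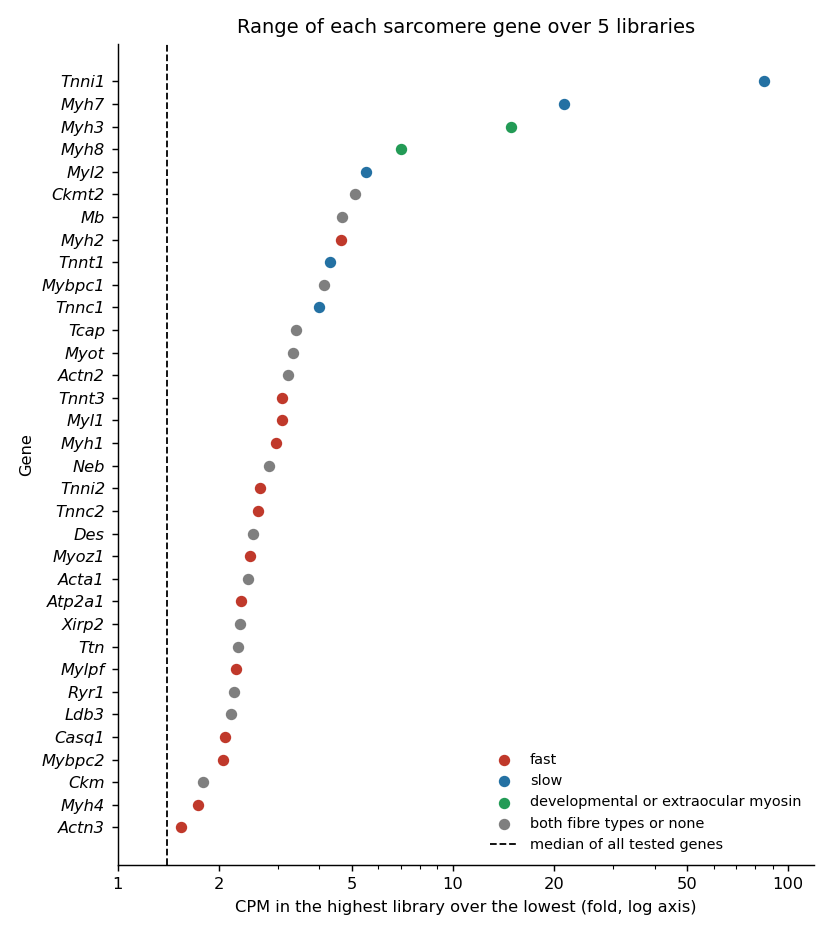
CPM in the highest over the lowest of 5 mRNA libraries (fold, log axis) for the 34 sarcomere genes above 0 in all libraries, coloured by fibre type, with the median of all tested genes (1.41-fold) as a dashed line. The slow genes Tnni1 (84.7-fold), Myh7 and Myl2 and the developmental myosins Myh3 and Myh8 hold the top of the range. The slow genes Tnnt1 and Tnnc1 lie below Ckmt2, Mb and the fast chain Myh2. Actn3, Myh4 and Ckm hold the bottom, below 2-fold.

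Further muscle genes were read from the same fit. Of 30 other sarcomere genes, 1 rose and 0 fell, and 20 had blue A and control B as their highest libraries. Of all tested genes 0.664% rose and 1.55% fell, and 12.7% of those above 0 everywhere had these libraries highest. The tropomyosin Tpm2 had 124, 70.4 and 69.0 CPM in blue, against 60.5 and 138 CPM in control, while Tpm1, which smooth muscle also uses, had 151, 118 and 124 CPM in blue, against 117 and 161 CPM in control. The gene that rose was Pdlim3, an actinin-associated LIM protein named after its values were seen, with 15.0, 16.2 and 14.1 CPM in blue, against 7.30 and 8.73 CPM in control (log2 fold change 0.92 ± 0.14, SE; edgeR adjusted p = 0.035). It was higher in each blue library than in either control and did not follow the order of the sarcomere genes. Of 20 other excitation-contraction genes 0 were called, and 12 had blue A and control B highest, among them the calcium buffer Pvalb at 59.9, 38.5 and 44.7 CPM in blue, against 34.0 and 54.5 CPM in control.

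Genes of the fibre surface, of regeneration and of metabolism were counted in the same way. Of 11 neuromuscular junction genes 0 rose and 1 fell (0.664% and 1.55% of all genes), and 2 had blue A and control B highest (12.7% of all genes). The gene that fell was Lrp4, the agrin receptor, which many other cells express, with 76.5, 79.8 and 78.9 CPM in blue, against 119 and 118 CPM in control (log2 fold change -0.59 ± 0.07, SE; edgeR adjusted p = 0.0197). Of 15 myogenic regulators and satellite cell genes, 5 atrophy ligases, 12 glycolysis and glycogen genes, 6 muscle mitochondrial isoforms and 7 other myosin heavy chains, 0 were called (2.22% of all genes were). Blue A and control B were highest for 5, 3, 6, 3 and 3 of them, against 12.7% of all genes. Mef2c, a muscle transcription factor that neurons also use, had 96.4, 69.1 and 79.8 CPM in blue, against 133 and 114 CPM in control (edgeR adjusted p = 0.137).

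Markers of other cells were read beside the muscle genes. Among 6 keratins of cornea and conjunctiva, 4 had blue A and control B highest and 0 were called. Their summed level was 5151, 4462 and 3952 CPM in blue, against 3705 and 4657 CPM in control, and Krt15 had 394, 90.1 and 91.4 CPM in blue, against 128 and 219 CPM in control. None of the 6 was at 0, and their part in the muscle pattern was not tested. Blue A and control B were highest for 2 of 10 cardiac genes, 1 of 10 smooth muscle, 1 of 8 Schwann cell, 1 of 8 lens genes, and for 0 of the 10 adipocyte, 8 tendon, 5 red blood cell and 10 rod genes. Among all genes 12.7% had these libraries highest, and edgeR called 0.664% higher and 1.55% lower in blue. Of the cardiac genes 1 rose, the cardiac troponin T gene Tnnt2, with 9.29, 12.2 and 8.70 CPM in blue, against 0.907 and 1.37 CPM in control (log2 fold change 3.15 ± 0.28, SE; edgeR adjusted p = 0.0159). It was high in all 3 blue libraries alike and did not follow the library order of skeletal troponins. Of the adipocyte genes 1 rose (Cfd, named after its values were seen, log2 fold change 2.55, edgeR adjusted p = 0.0468). A positive log2 fold change was found for 9 of 10, against 48.95% of all genes, and 3 had an unadjusted p under 0.05 in edgeR, against 16.3%. The adipocyte level was 0.65, -0.27 and 0.45 in blue, against -0.52 and -0.32 in control, and the summed CPM was 67.3, 51.3 and 61.3 in blue, against 42.8 and 50.3 in control. Cidec and Lep, markers of fat cells named after their values were seen, were listed at 0 in both controls. The 4 adipocyte genes with the highest mean CPM had log2 fold changes of 0.261 (Plin4), 0.141 (Lipe), 0.925 (Fabp4) and -0.594 (Retn), with edgeR adjusted p from 0.33 to 0.54. By level and by summed CPM fat was highest in blue A, a high library of the muscle genes, but was not high in control B, the other. Of the rod genes 8 fell and 0 rose, with levels of -1.11, -0.30 and -0.61 in blue, against 1.05 and 0.97 in control. Of the smooth muscle, tendon, Schwann, red blood cell and lens genes 0 were called. No gene of the table was called without control B, which covers Pdlim3, Lrp4, Tnnt2, Cfd and the rod genes.

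Small RNAs gave a readout of muscle that did not use the mRNA libraries. Muscle fibres carry a set of microRNAs named for it. Of these, miR-206 belongs to skeletal muscle, and miR-1 and miR-133a to skeletal and heart muscle. Slow myosin genes host miR-208b and miR-499. RefSeq entries (GRCm38.p6) matched 4 of the 7 listed, and are shown 5′ to 3′ with the seed, bases 2 to 8, in capitals, because their seeds differ and 2 of them lie beside each other on chromosome 1.
miR-133b-3p: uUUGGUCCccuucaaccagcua
miR-206-3p: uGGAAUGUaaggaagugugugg
miR-208b-3p: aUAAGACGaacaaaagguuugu
miR-499-5p: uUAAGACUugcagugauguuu
They map to chr1:20682834-20682855 (plus strand), chr1:20679055-20679076 (plus strand), chr14:54975710-54975731 (minus strand, within the Myh7 span) and chr2:155622893-155622913 (plus strand). The 4 seeds are distinct.

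Skeletal miR-206 was high in the same libraries as the sarcomere mRNAs. It had 1024, 164 and 216 CPM of the miRNA libraries in blue A, B and C, against 251 and 961 CPM in control A and B, a 6.26-fold range (log2 fold change -0.37 ± 0.73, SE; edgeR adjusted p = 0.901). Blue A and control B were again the high libraries, under the same letters as in the mRNA table; whether libraries of 1 letter share their RNA is not stated. The Myh7-hosted miR-208b-3p had 1.07, 0.0930 and 0.741 CPM in blue, against 0.256 and 1.24 CPM in control, which is 12, 1 and 7 counts against 2 and 11. Its low counts had the order of Myh7 itself, which was lowest in blue B and highest in control B.

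The miRNAs miR-1a, miR-133a and miR-133b were lowest in control A. For miR-1a-3p the values were 16710, 11890 and 13800 CPM in blue, against 7387 and 13730 CPM in control (log2 fold change 0.42 ± 0.25, SE; edgeR adjusted p = 0.544). For miR-133a-3p they were 1517, 1110 and 1368 CPM in blue, against 569 and 1249 CPM in control (log2 fold change 0.55 ± 0.30, SE; edgeR adjusted p = 0.516), and for miR-133b-3p 286, 200.3 and 220 CPM in blue, against 103 and 224 CPM in control (log2 fold change 0.53 ± 0.31, SE; edgeR adjusted p = 0.544). Blue A was the highest library for all 3. Control B came next for miR-133b-3p, just above blue C, and blue C came next for miR-1a-3p and miR-133a-3p. Without control A these 3 log2 fold changes were 0.04, 0.09 and 0.07, and without control B they were 0.95, 1.24 and 1.2. In the other direction, miR-499-5p had 2584, 2696 and 2197 CPM in blue, against 2988 and 1930 CPM in control, so control B was its lowest library. The red cell and muscle miRNA miR-486a-5p, whose counts equal those of miR-486b-5p, had 279, 192 and 206 CPM in blue, against 251 and 289 CPM in control. Control B and blue A were thus its highest libraries, with control A next, over a 1.51-fold range. Of the 7 miRNAs 0 were called by edgeR or DESeq2 and 0 had an unadjusted p under 0.05 in either, in a comparison that called 4 of 641 (0.624%; DESeq2 11, 1.72%). All 7 overlapped between lights, whereas 28.4% of the miRNAs tested did not.

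**Figure D5:**
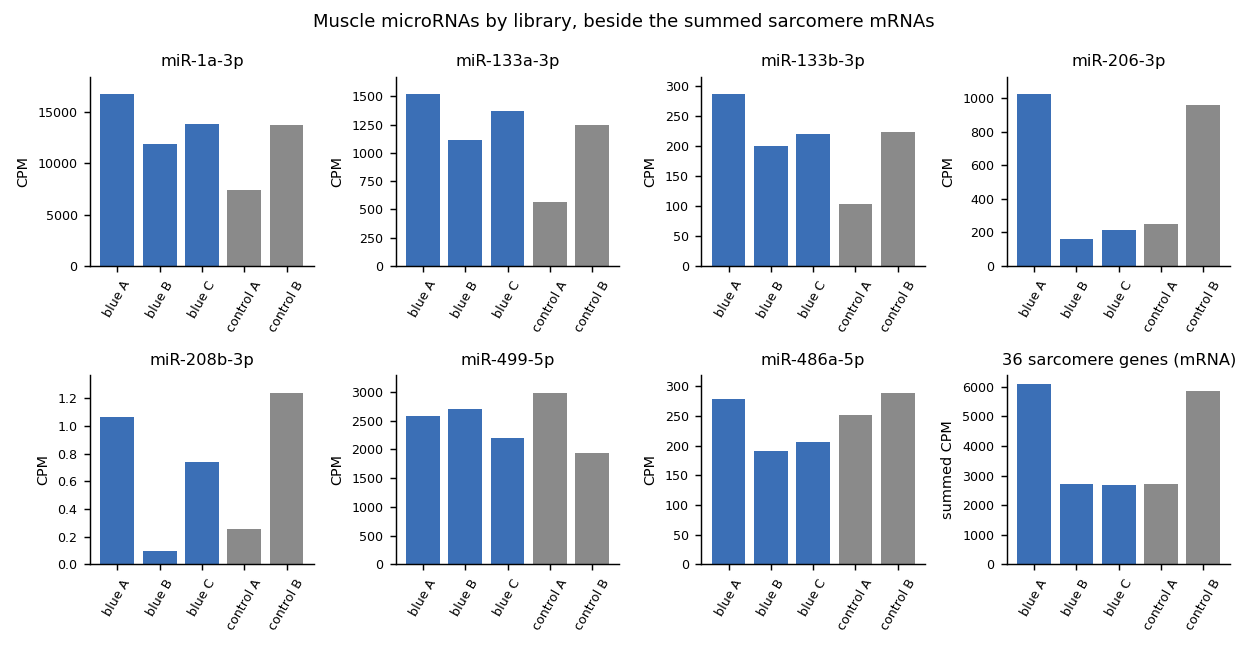
Level of 7 muscle miRNAs in each miRNA library (CPM, bars from 0, blue bars for blue light and grey for natural light), with the summed CPM of the 36 sarcomere genes in the mRNA libraries of the same letters in the last panel. The miR-206-3p bars (1024, 164 and 216 CPM in blue, 251 and 961 CPM in control) share the high libraries of the sarcomere panel, and the miR-499-5p bars do not.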

How the data were processed

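RNA of whole eyeballs was measured in 5 mRNA libraries and 5 miRNA libraries. Per the labels' protocols, libraries were depleted of ribosomal RNA, fragmented, and reverse transcribed from random primers. Per the submitters' processing notes the tools were StringTie, HISAT2, limma, DESeq2 and bcl2fastq 2.0 and the build was mm10; no roles are given. The deposited mRNA values are whole numbers per gene symbol and were treated as estimated counts that the authors had not normalised. The low values are uneven (1107 cells equal 5, against 580 equal to 6), so no counting intervals are given. For mature miRNAs the authors deposited raw counts. The miRNA counter and the strand setting were not stated in the sources.

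Columns were matched to libraries by title, and 0 columns were left unused. The mRNA libraries summed to 87071487 to 107660103 and the miRNA libraries to 8355432 to 10875487. Counts were fitted with edgeR 4.0.16 under R 4.3.3 (quasi-likelihood F-test, TMM factors, genes kept by filterByExpr) over all features, with Benjamini-Hochberg adjustment and a threshold of 0.05. CPM uses TMM-scaled totals. A level of a gene list is the mean over its genes of log2(CPM + 0.5), each gene centred on its mean over 5 libraries. Shares were compared by an exact two-sided permutation test over 10 assignments of libraries, whose smallest possible p is 0.1. Heavy chain shares were planned per transcript length; transcript lengths were not used here, so shares are of estimated counts. Alternatives were other scalings, filters, DESeq2 1.42.0, limma-voom 3.58.1, values divided by 4, a replicate block on the letter, and 1 library left out at a time. The share without Ttn was added after seeing the data. The fit was also run on simulated counts, drawn gene by gene with the fitted dispersions. These hold no library differences shared between genes, so they do not speak to the pattern of blue A and control B. Members and lists were chosen with earlier results of these data known. All 36 members may be named, and of each other list the 4 genes with the highest mean CPM; any other gene named was chosen after its values were seen. Sequences come from the RefSeq tables of GRCm38.p6 and hold 300 bases a promoter, 250 before and 50 after the start used there.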

Additional observations from a re-analysis of the deposited data

How the results depend on the processing

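The 36 sarcomere genes had 0 calls under every alternative run (lowest adjusted p 0.231 over 499 values; for miRNAs 0.0834 over 69), so none of these settings separates blue from control. The sign of a member's log2 fold change differed from the reported one in 91 of the 499 values, for 35 of 36 genes. Over all genes of the table, calls were counted anew under each setting. The number called, 421 in the main fit, was 274 with library totals alone and 1715 with DESeq2. With the letter as a replicate block it was 0 (636 higher and 819 lower at an unadjusted p under 0.05). It was 311 without blue A and 277 without blue B. Without blue C 11 were called. The labels give no pairing of libraries by letter. Same-letter deviations from the group means correlated at -0.182 (A) and -0.147 (B). With 2 controls, each control's deviations are the other's with the sign turned, so these values cannot decide pairing. The median log2 fold change of the members (-0.20) was -0.11 with library totals, -0.10 with limma-voom, 0.0793 with the replicate block and -0.67 to 0.71 with 1 library left out.

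Examples of reversed values were, for Myh13, 2.84 with limma-voom and 0.20 with the replicate block. For Acta1 they were 0.0294 with library totals, 0.0246 with limma-voom and 0.21 with the block, and for Mb 0.0722 with the block. For Actn3 they were 0.0097 with DESeq2's size factors in edgeR, 0.0506 with library totals, 0.0097 with DESeq2, 0.0292 with limma-voom and 0.034 with the block. Further genes reversed too, among them Ckmt2 (0.169 with limma-voom, 0.251 with the block) and Myh1 (0.0766 with the block). The cause was not tested. With 1 library left out the log2 fold change ran from -2.47 to 1.58 for Myh3, -0.24 to 0.31 for Myh4, -1.77 to 1.30 for Myh7, -0.53 to 0.72 for Acta1, -1.96 to 1.33 for Tnni1, -0.25 to 0.31 for Actn3, -0.67 to 0.37 for Ttn, -0.71 to 0.49 for Atp2a1, -0.50 to 0.32 for Ckm, -1.21 to 1.12 for Mb, 0.04 to 0.95 for miR-1a, 0.09 to 1.24 for miR-133a, 0.07 to 1.2 for miR-133b, -1.68 to 0.91 for miR-206, -0.95 to 1.28 for miR-208b and -0.25 to 0.37 for miR-499. For Myh13 it ran from -3.02 to 10.5, the highest without control B, where the remaining control is at 0 and the fitted value is no fold. With 1 left out, the blue minus control difference in heavy chain share ran from -2.06 to 1.31 points for Myh1, -5.37 to 2.03 for Myh2, -9.91 to 3.3 for Myh3, -7.4 to 19.3 for Myh4, -0.707 to 0.181 for Myh7, -0.781 to 0.304 for Myh8 and -1.19 to 0.267 for Myh13, and that in the share of the library total from -0.156 to 0.106. Where a control is left out, the lone control is assumed to vary like the blue libraries. Heavy chain shares per length were not run. Without blue A, miR-208b-3p did not pass the low-count filter, so its range with 1 library left out lacks that fit. Low counts limit Myh13, Myl2, Myl3, Tnni1 and miR-208b-3p.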
